A study of Gallus gallus with 40 samples.

Results

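Liver of high growth (HG) chickens was compared with liver of low growth (LG) chickens at 9 weeks of age. The members are the 4 arrays that the labels place at 9 weeks, out of 40 arrays in the series, and each array set RNA from an HG liver against RNA from an LG liver. The HG and LG birds were juvenile broiler chickens of a pair of lines, bred in opposite directions on body weight at 8 and 32 weeks of age and raised under the same standard broiler protocol. HG RNA carried the dye Alexa 555 on replicates 1 and 3 and Alexa 647 on replicates 2 and 4, and LG RNA carried the other dye. The series design gives 4 biological replicates per line at this age, and the labels used here give neither the sex of the birds nor their body weights. Each direction of selection is represented by 1 line, so the direction of selection and any other difference between the lines cannot be told apart. The same lines were also compared on 12 arrays each at 1 and 3 weeks and on 4 arrays each at 5, 7 and 11 weeks, and those ages serve below to place the values of 9 weeks.

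The chicken liver is the main site of fatty acid synthesis in the bird, and it exports the product as lipoprotein. It also makes bile acids, most plasma proteins and the enzymes that add sulfate or glutathione to hormones, bile acids and foreign compounds. Growth hormone acts on it through the receptor GHR and the transcription factor STAT5, and thyroid hormone raises lipogenesis through targets such as THRSP.

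The value of a probe is the log2 of the dye ratio, turned so that both dye orientations point the same way. The line effect at 9 weeks is then the mean of the 4 turned values as fitted with limma, and its standard error (SE) uses the spread pooled over all ages. Which dye is the numerator is not given in the sources used here. If it is Alexa 647 over Alexa 555, the likely reading because the series text calls these dyes red and green, a positive value is higher in HG liver than in LG liver and a negative value is lower in HG liver than in LG liver. If it is the other way round, every sign below turns. The direction is not settled, because the numerator is not given. The labelled orientation is also in doubt on some arrays. A 9-week array and an array of the same labelled orientation at 3 weeks had r = -0.35 across spots. That 3-week array belongs to the pair left out of the fit for nearly identical values. Arrays of the same labelled orientation at 3 and 7 weeks had r = -0.31. The values also rest on ratios that were not yet turned to HG over LG when deposited. Under the other reading 594 of 6432 probes passed, and none of the 54 probes called here at 9 weeks was among them. Because 594 is a small share of all probes, only a few shared probes would be expected from unrelated lists. The text therefore speaks of positive and negative values.

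The 4 arrays had values on 10868 to 11563 of 19200 spots. Before turning, replicates 1 and 3, which share an orientation, had r = 0.72 across all spots with values, and replicates 2 and 4 had r = 0.40. Pairs of opposite orientation had r of 0.26 and 0.35 where replicate 2 was one of them, and -0.23 and -0.21 where replicate 4 was. In ratios not yet turned, a line difference alone would make r of such pairs negative, so the pairs with replicate 2 went against that sign. After the dye effect of the fit was removed and the values turned, each array was set against the mean of the others. Only the probes tested entered here, so these values are not on the same footing as those before turning. The correlation was 0.32 for replicate 1, 0.031 for replicate 2, 0.24 for replicate 3 and 0.43 for replicate 4. Replicate 4 had the widest spread of log2 ratios, with an interquartile range of 0.45 against 0.27 to 0.32 on the others. The data hold ratios and no levels, so the tissue label could hardly be checked. Of 20 liver marker genes on the array 19 had enough values at every age to be tested, against 3181 of 6428 genes in all. All 6 erythroid markers were tested as well, so this was not particular to liver markers.

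Of 6432 probes tested, 54 passed an adjusted p of 0.05 at 9 weeks (limma, Benjamini-Hochberg), which is 0.84% of them, with 8 positive (0.124%) and 46 negative (0.715%), or 46 positive and 8 negative with the sign turned. The negative probes included enzymes of fatty acid, bile acid and sulfate metabolism, regulators of the actin skeleton, and genes of RNA capping, chromatin and mitochondria. The positive ones included an ion transport kinase, a nucleic acid binding protein and a cytochrome P450. The 54 comprised probes of 25 named genes, of which 21 were negative and 4 positive, and 29 probes without a gene symbol. The sign was the same on every array with a value for 49 of the 54, and 9 of them differed at least 2-fold. At an unadjusted p of 0.05 there were 732 probes, 453 positive and 279 negative, so positive values were the larger group there. The median over all probes was 0.045.

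**Figure D1:**
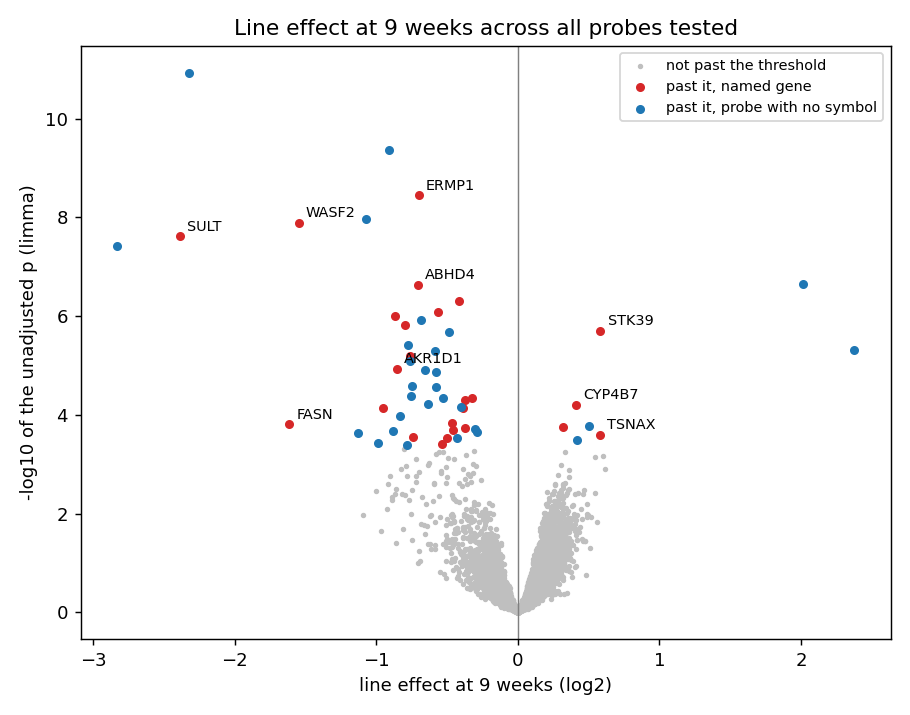
Line effect at 9 weeks (log2, x axis) against the -log10 of the unadjusted p from limma (y axis) for 6432 probes, with grey points for probes that did not pass an adjusted p of 0.05. Of the 54 probes that passed, 46 lie left of 0 and 8 right of it, with 25 named genes in red and 29 probes without a symbol in blue.

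These counts depend on the spread that enters the test. The residual SD of the median probe was 0.145 on the 9-week arrays alone and 0.245 pooled over all ages, with 7 weeks the widest at 0.356. Without the arrays of 5 and 7 weeks, 490 probes passed (270 positive, 220 negative), all 54 among them. The 9-week arrays alone, with few degrees of freedom, gave 2 probes, both positive and both among the 54. None of the negative probes and none of the 25 named genes passed there. With a dye effect fitted for each age 226 passed, again with all 54, and 121 were positive and 105 negative, against a share of 85.2% negative among the 54.

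SULT, a sulfotransferase, had the largest value of any named gene. Its turned log2 ratios were -2.86, -0.98, -2.25 and -3.47 on replicates 1 to 4. All 4 arrays were negative, and replicate 2 stood nearest 0. The line effect was -2.39 (SE 0.33, 5.23-fold, 4 arrays, adjusted p = 2.56e-05, limma). SULT kept an adjusted p of 0.003 or lower when any single 9-week array was left out, with values between -2.95 and -2.09. LOC396380, which RefSeq also lists as GSTAL3, a glutathione S-transferase of the alpha class, had -1.20, -0.60, -0.66 and -1.36. Its line effect was -0.95 (SE 0.21, 1.94-fold, adjusted p = 0.0134), and it did not pass without replicate 4, where the adjusted p was 0.281.

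FASN, the enzyme that builds palmitate, had turned log2 ratios of -2.14, -0.52, -1.39 and -2.40 on replicates 1 to 4. The line effect was -1.61 (SE 0.38, 3.06-fold, adjusted p = 0.026, limma), and replicate 2 again stood nearest 0. A second FASN probe had -0.0081 (SE 0.073), so the probes disagreed, and the mean of the gene, -0.81, had an adjusted p of 0.0523 over genes. Without replicate 4 the adjusted p of the FASN probe was 0.414. ABHD4, a lipase that releases fatty acids from N-acyl phospholipids, had -0.92, -0.41, -0.38 and -1.11. All 4 were negative, the line effect was -0.71 (SE 0.11, 1.63-fold, adjusted p = 0.000166), and ABHD4 passed with any single array of 9 weeks left out. AKR1D1, the reductase that gives bile acids and steroids their bent ring form, had -1.02, -1.37, -0.57 and -0.46. Its line effect was -0.86 (SE 0.17, 1.81-fold, adjusted p = 0.00342), and without replicate 2 the adjusted p was 0.0813. GALM, the galactose mutarotase, had -0.38 (adjusted p = 0.0134).

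WASF2, which drives branching of actin filaments as part of the WAVE complex, had -1.48, -1.13 and -1.99 on replicates 1, 3 and 4 and no value on replicate 2. All 3 values were beyond a 2-fold difference. The line effect of this WASF2 probe was -1.55 (SE 0.21, 2.92-fold, 3 arrays, adjusted p = 1.64e-05, limma). The other WASF2 probes had -0.090 (SE 0.23) and 0.13 (SE 0.13) and did not pass, so the WASF2 values disagreed between probes. NCKAP1L, the WAVE subunit of blood cells, had -0.35, -0.48 and -0.57 on the same 3 arrays. Its line effect was -0.50 (SE 0.12, 1.42-fold, adjusted p = 0.0382). In bulk liver, fewer cells of a type and less RNA per cell cannot be told apart. Of 8 leukocyte marker genes measured, 0 passed, with values from -0.42 for LYG2, a lysozyme, to 0.39 for CD3E, a subunit of the T cell receptor complex. Their part in the NCKAP1L value was not tested. DIAPH2, a formin that extends actin filaments, had -0.37 (SE 0.080, adjusted p = 0.0107).

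Other negative calls had roles in transcription and chromatin. RNGTT, the enzyme that caps new mRNA, had -0.69, -0.17, -0.73 and -0.26 on replicates 1 to 4, and its line effect was -0.46 (SE 0.11, 1.38-fold, adjusted p = 0.0257). The pair of arrays with HG in Alexa 555 stood farther from 0 than the pair with HG in Alexa 647. PRDM10, a zinc finger protein, had -0.96, -0.66, -0.57 and -1.28 and a line effect of -0.87 (SE 0.15, 1.82-fold, adjusted p = 0.000542). A second PRDM10 probe had 0.059 (SE 0.095). MNT, a repressor that binds MAX in place of MYC, had -0.34, -0.76, 0.011 and -1.05, so replicate 3 was at 0, and its line effect was -0.53 (SE 0.14, adjusted p = 0.048). MAU2, a loader of cohesin, had -0.41 (SE 0.067, adjusted p = 0.000313), and MBD2, which binds methylated DNA, had -0.32 (SE 0.069, adjusted p = 0.0103).

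Further negative calls were on genes of mitochondria, the endoplasmic reticulum and endosomes. SFXN2, a carrier of the inner mitochondrial membrane, had -0.54, -0.92, -0.53 and -1.06, with a line effect of -0.76 (SE 0.14, 1.70-fold, adjusted p = 0.0021). MCU, the pore of the mitochondrial calcium uniporter, had -0.78, -0.25, -0.47 and 0.0077. Replicate 4 of MCU was at 0, and the line effect was -0.37 (SE 0.088, adjusted p = 0.0283). ERMP1, a metallopeptidase of the endoplasmic reticulum, had -0.82, -0.53, -0.49 and -0.96. Its line effect was -0.70 (SE 0.089, 1.62-fold, adjusted p = 7.67e-06), the smallest adjusted p among the named genes. VPS37C, a subunit of the ESCRT-I sorting complex, had -1.08, -0.27, -0.60 and -0.31 and a line effect of -0.57 (SE 0.095, adjusted p = 0.000482). For SFXN2 the pair of arrays with HG in Alexa 647 stood farther from 0 than the other pair. For MCU and VPS37C the pair with HG in Alexa 555 did.

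KRT10, a keratin, had -0.69, -0.61, -0.51 and -1.38 on replicates 1 to 4, and its line effect was -0.80 (SE 0.14, 1.74-fold, adjusted p = 0.000686). KATNIP, which interacts with the microtubule severing enzyme katanin, had -0.66, -0.24, -0.98 and -1.08. The fitted value was -0.74 (SE 0.18, adjusted p = 0.0374), and the values of KATNIP spread more widely than those of KRT10 on replicates 1 to 3. GNA12, a G protein subunit, had -0.46 (SE 0.11, adjusted p = 0.0308). GNA12, MAU2, GALM, DIAPH2 and MBD2 fall outside the rule for named genes and were named after their values were seen.

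The 4 positive genes differed by less than 2-fold. STK39, a kinase that activates chloride cotransporters, had 0.96, 0.53, 0.66 and 0.19 on replicates 1 to 4, with a line effect of 0.58 (SE 0.10, adjusted p = 0.00084, limma). TSNAX, the partner of translin in RNA processing, had 0.87, 0.44, 0.77 and 0.24. The TSNAX line effect was 0.58 (SE 0.14, 1.49-fold, adjusted p = 0.0348). For STK39 and TSNAX the pair of arrays with HG in Alexa 555 was higher than the pair with HG in Alexa 647, and all 8 values were positive. CYP4B7, a cytochrome P450, had 0.22, 0.40, 0.42 and 0.61 and a line effect of 0.41 (SE 0.091, 1.33-fold, adjusted p = 0.0126). Its other probe had 0.29 (SE 0.22). PRCP, a lysosomal carboxypeptidase that cleaves angiotensin, had 0.35, 0.25 and 0.35 on replicates 2, 3 and 4, with a line effect of 0.32 (SE 0.076, adjusted p = 0.0279), while other PRCP probes had -0.088 (SE 0.16) and 0.063 (SE 0.065).

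**Figure D2:**
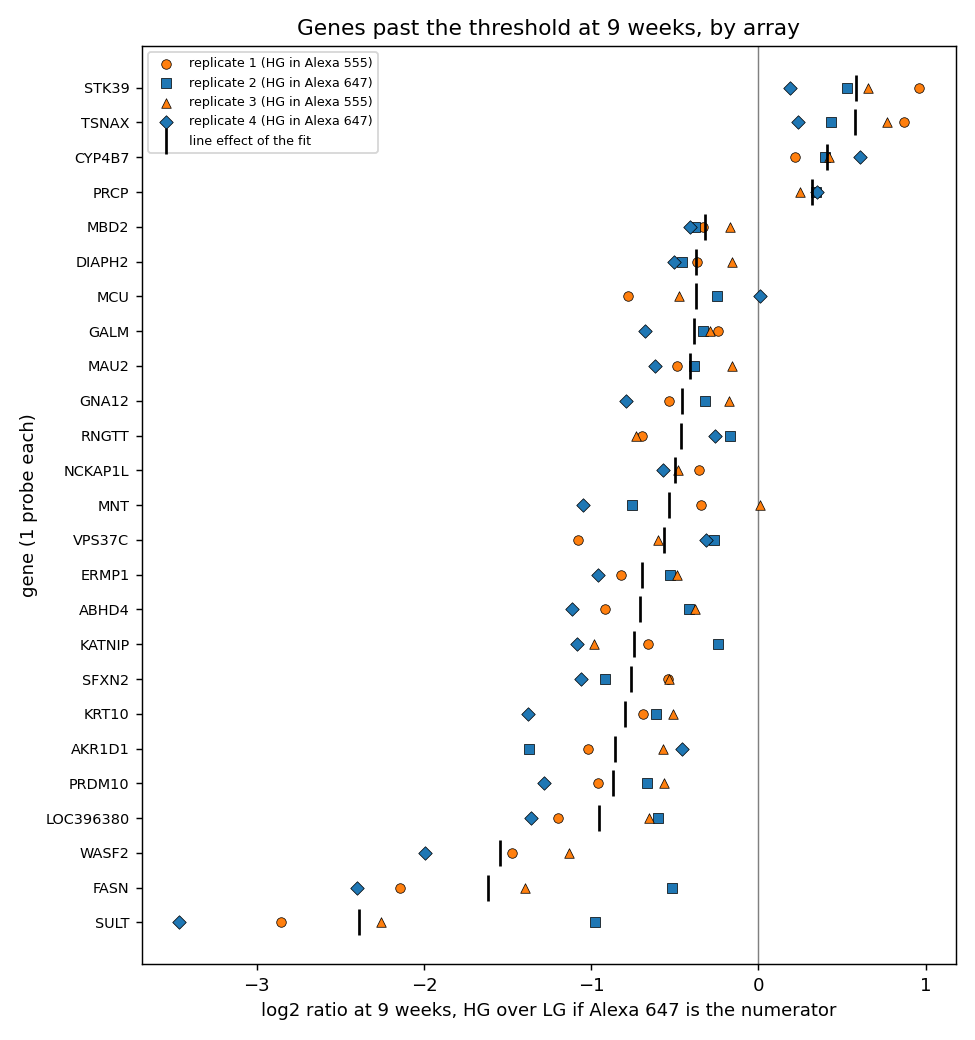
Turned log2 ratio at 9 weeks (x axis) on each of the 4 arrays for the 25 named genes that passed an adjusted p of 0.05 (y axis), with orange marks for HG in Alexa 555, blue marks for HG in Alexa 647 and a black bar for the line effect of the fit. All arrays of a gene lie on 1 side of 0 except replicate 3 of MNT (0.011) and replicate 4 of MCU (0.0077), and SULT, FASN and WASF2 lie farthest from 0.

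Of the 25 named genes, 8 passed with any single 9-week array left out, namely SULT, WASF2, ERMP1, ABHD4, PRDM10, VPS37C, MAU2 and STK39. In these 4 fits KRT10, SFXN2, AKR1D1 and GALM passed in 3, and LOC396380, TSNAX, MCU, MBD2 and GNA12 passed in 2. FASN, RNGTT, KATNIP, NCKAP1L, MNT, PRCP, CYP4B7 and DIAPH2 passed in 1. WASF2 and NCKAP1L had no value on replicate 2 and PRCP had none on replicate 1. For these genes the fit without that array removed none of their own values. Without replicate 1 there were 27 probes past the threshold and without replicate 4 there were 23, against 77 without replicate 2 and 44 without replicate 3.

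Large values also lay on probes with no gene symbol in the annotation, and 1 of them, 8.14.3, was farther from 0 than SULT. Probe 8.14.3 had -4.23, -0.88, -3.46 and -2.74 on replicates 1 to 4 and a line effect of -2.83 (SE 0.41, 7.10-fold, adjusted p = 3.52e-05). Probe 8.11.6 had -2.77, -1.35, -2.38 and -2.78 and a line effect of -2.32 (SE 0.23, 4.99-fold, adjusted p = 7.58e-08). On the positive side, probe 47.14.10 had 3.17, 1.60, 2.65 and 2.07 with a line effect of 2.37 (SE 0.43, adjusted p = 0.00172), and probe 44.7.15 had 2.01 (SE 0.31, adjusted p = 0.000166). Replicate 2 stood nearest 0 for all 4 of these probes, as it did for SULT and FASN.

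Below the threshold, genes were taken in order of p among those with the same sign on every array, so the agreement of their arrays is part of the choice. Values lay on both sides. SLC25A6, the mitochondrial carrier that swaps ADP for ATP, had -0.81 (SE 0.21, adjusted p = 0.058), with -0.053 on replicate 2 and -1.44 on replicate 1. LSG1, a GTPase of ribosome assembly, had -0.31 (adjusted p = 0.0626), SUGCT, an enzyme of glutarate breakdown, had -0.82 (adjusted p = 0.106), and FMO4, a monooxygenase, had -0.54 (adjusted p = 0.115). Among positive values, MED27, a Mediator subunit, had 0.77, 0.40, 1.00 and 0.23 on the 4 arrays and a line effect of 0.60 (SE 0.16, adjusted p = 0.0719). RAB9A, a GTPase of late endosomes, had 0.55 (adjusted p = 0.0732), CMBL, a hydrolase, had 0.33 (adjusted p = 0.0628), ENPP3, an ectonucleotidase, had 0.31 (adjusted p = 0.0963), and DNMT3A, a DNA methyltransferase, had 0.33 (adjusted p = 0.16). None of these genes passed.

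Gene lists were described with 1 value per gene, the mean of its probes. Of 3181 genes, 18 passed (0.566%), 2 positive and 16 negative. The median gene had 0.044, and 62.2% of genes were positive, against which the lists are read. Of 15 genes on the list of fatty acid and triglyceride synthesis, 1 passed, 10 were negative and the median was -0.14. The gene that passed was ABHD4, a lipase and not a synthesis enzyme, and the mean of the FASN probes did not pass. THRSP, a thyroid hormone responsive regulator of lipogenesis, had -2.25, 0.48, -1.56 and -0.53 on replicates 1 to 4, so replicate 2 had the opposite sign. Its line effect was -0.97 (SE 0.41, adjusted p = 0.37 over probes) and did not pass. ACSL1, which activates long chain fatty acids, had 0.55 (SE 0.18, adjusted p = 0.208 over probes), the opposite side from FASN and THRSP. The 14 genes each of fatty acid oxidation and cholesterol synthesis had medians of -0.0022 and 0.040, and 0 passed in either list.

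Bile acid and xenobiotic genes each held 1 gene that passed and medians near that of all genes. Of 10 genes of bile acid synthesis and transport, AKR1D1 passed, 5 were negative and 5 positive, and the median was -0.029. HSD17B4, a peroxisomal enzyme that shortens bile acid side chains and fatty acids, had -0.42 (adjusted p = 0.16 over probes). Of 39 xenobiotic genes SULT passed, 21 were positive, and the median was 0.012. ALAS1, the enzyme that starts haem synthesis, had -0.027, 1.63, 0.47 and 0.39, with a line effect of 0.62 (SE 0.18, adjusted p = 0.106), and replicate 2 stood highest. GPX3, a secreted glutathione peroxidase, had -0.50 (adjusted p = 0.161).

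The lists of lipoproteins, endoplasmic reticulum chaperones, acute phase and haemostasis held no gene that passed. APOA1, the main protein of high density lipoprotein, had -0.89 (SE 0.30) and -0.65 (SE 0.22) on its probes and a mean of -0.77 (SE 0.20, adjusted p = 0.0588 over genes). On its first probe APOA1 had -1.79, 0.38, -1.27 and -0.87, so replicate 2 was again opposite to the others. PLTP, which moves phospholipid between lipoproteins, had 0.22 (adjusted p = 0.445), and the median of 9 lipoprotein genes was -0.043. Of 17 genes of endoplasmic reticulum chaperones 12 were negative with a median of -0.081, among them P4HB, a disulfide isomerase, at -0.61, HSPA5, the chaperone BiP, at -0.41 and ATF4, a stress transcription factor, at -0.34. Of 13 acute phase genes 9 were negative with a median of -0.044, including CEBPB, a transcription factor of the acute phase, at -0.29 (adjusted p = 0.298), whose probes had -0.63 and 0.048. Of 8 haemostasis genes 7 were negative, and the median was -0.075.

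Genes of the growth hormone, IGF and thyroid axis stood mostly on the positive side without passing. Of 10 measured, 8 were positive, 0 passed and the median was 0.14. The member farthest from 0 was THRSP, negative at -0.97, and the highest positive member had 0.36. SOCS2, which limits growth hormone signalling, had a mean of 0.27 (SE 0.13), STAT5A had 0.21 (SE 0.092), and INSR, the insulin receptor, had 0.21 (SE 0.093). Their adjusted p values ran from 0.4 to 0.433 over genes. IGFBP2, a carrier of insulin-like growth factors, had 0.15 (SE 0.080), and GHR, the growth hormone receptor, had 0.028 (SE 0.11) with 0.27, -0.070, -0.054 and -0.030 on the 4 arrays. IGF1 and IGF2 were not analysed here.

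Markers of other cell types held no gene that passed. Of 19 genes of matrix and vessel cells 15 were positive (78.9%) with a median of 0.11, led by THY1, a surface protein of stromal cells, at 0.28 and ENG, an endothelial receptor, at 0.22. The list medians on replicates 1 to 4 were 0.12, -0.026, 0.13 and 0.14. On their probes with the smallest p, THY1 had 0.13, 0.31, -0.099 and 0.99 and ENG had 0.20, 0.040, 0.23 and 0.86. Replicate 4 was highest for both. Of 3 bile duct markers measured 2 were positive, with a median of 0.23. KRT7 and SPP1, a keratin and a secreted matrix protein, had 0.27 and 0.23, and the third marker had -0.013. All 5 markers of neighbouring organs were positive, the highest at 0.16, and 13 of 19 liver markers were negative with a median of -0.048. The liver marker medians on replicates 1 to 4 were -0.0057, 0.26, -0.021 and -0.42. Replicate 4 thus stood farthest on the negative side, and replicate 2 was positive. Of 6 erythroid genes 4 were positive, with HBA1, a globin, at -0.14. Of 16 genes of antigen presentation and interferon response 9 were positive, with OASL, an interferon-induced gene, at 0.24. What part a different mix of cells had in the values of the named genes was not tested.

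**Figure D3:**
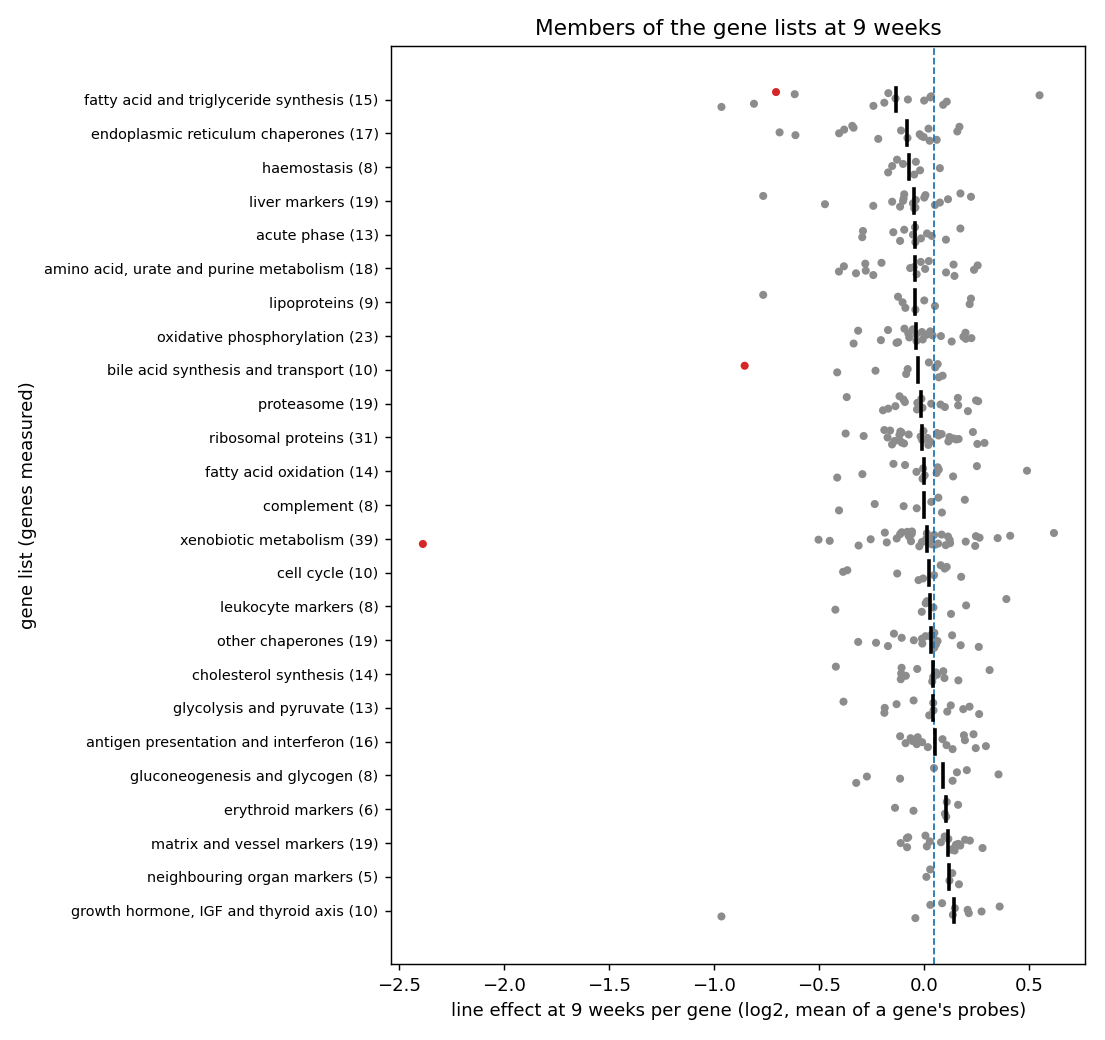
Line effect at 9 weeks per gene (log2, x axis) for the lists with at least 5 genes measured (y axis, number of genes in parentheses), with red points for genes that passed, black bars for list medians and a dashed line for the median of all genes at 0.044. List medians run from -0.14 for fatty acid and triglyceride synthesis to 0.14 for the growth hormone axis, and the red points are SULT, AKR1D1 and ABHD4.

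The other ages, measured on other arrays, showed how far the values of 9 weeks extended. They were tested in the same fit, with the spread of each probe and the dye effect shared. Passing at another age was therefore not independent of passing at 9 weeks. Of the 54 probes called at 9 weeks, 49 had the same sign at 11 weeks (90.7%, against 67.6% of all probes) and 8 passed there, where 0.389% of all probes did. At 7 weeks 48 had the same sign (88.9%, against 58.4% of all probes) and 20 passed, where 2.91% of all probes did. The 5-week arrays gave 37 with the same sign (68.5%, against 53.5%), the 3-week arrays 43 (79.6%, against 39.6%) and the 1-week arrays 37 (68.5%, against 57.4%). The size was smaller at 1, 3 and 5 weeks. Some arrays of 3 and 5 weeks ran against their labelled orientation and stayed in the fit, and their part in this was not tested. The median size of these probes was 0.67 at 9 weeks. Signed on the 9-week side, the medians for 1, 3, 5, 7 and 11 weeks were 0.033, 0.032, 0.11, 0.28 and 0.22. Because the probes were chosen at 9 weeks, their larger size at that age is a description only.

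SULT had -0.24, -0.069, -0.71, -2.32, -2.39 and -1.77 at 1, 3, 5, 7, 9 and 11 weeks. It was near 0 at the first ages and far from it from 7 weeks on, and it also passed at 7 and 11 weeks (adjusted p = 1.63e-05 and 0.00439, limma). FASN had -0.75, -0.024, -0.998, -1.65, -1.61 and -0.21 at the same ages. STK39 had 0.043, 0.048, 0.26, 0.42, 0.58 and 0.30. TSNAX had 0.58 at 9 weeks against 0.60 at 7 weeks, and ERMP1 had -0.70 at 9 weeks against -0.49 at 7 weeks, and both also passed at 7 weeks. At 11 weeks 4 of the named genes called at 9 weeks besides SULT passed, namely MCU (-0.53), MBD2 (-0.44), DIAPH2 (-0.38) and MAU2 (-0.31). ADH4, an alcohol dehydrogenase, and GPT2, an aminotransferase, passed at 11 weeks with -0.56 and 1.19 and had -0.17 and 0.24 at 9 weeks, and ATIC, a purine synthesis enzyme, had -0.74 at 11 weeks and -0.29 at 9 weeks.

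**Figure D4:**
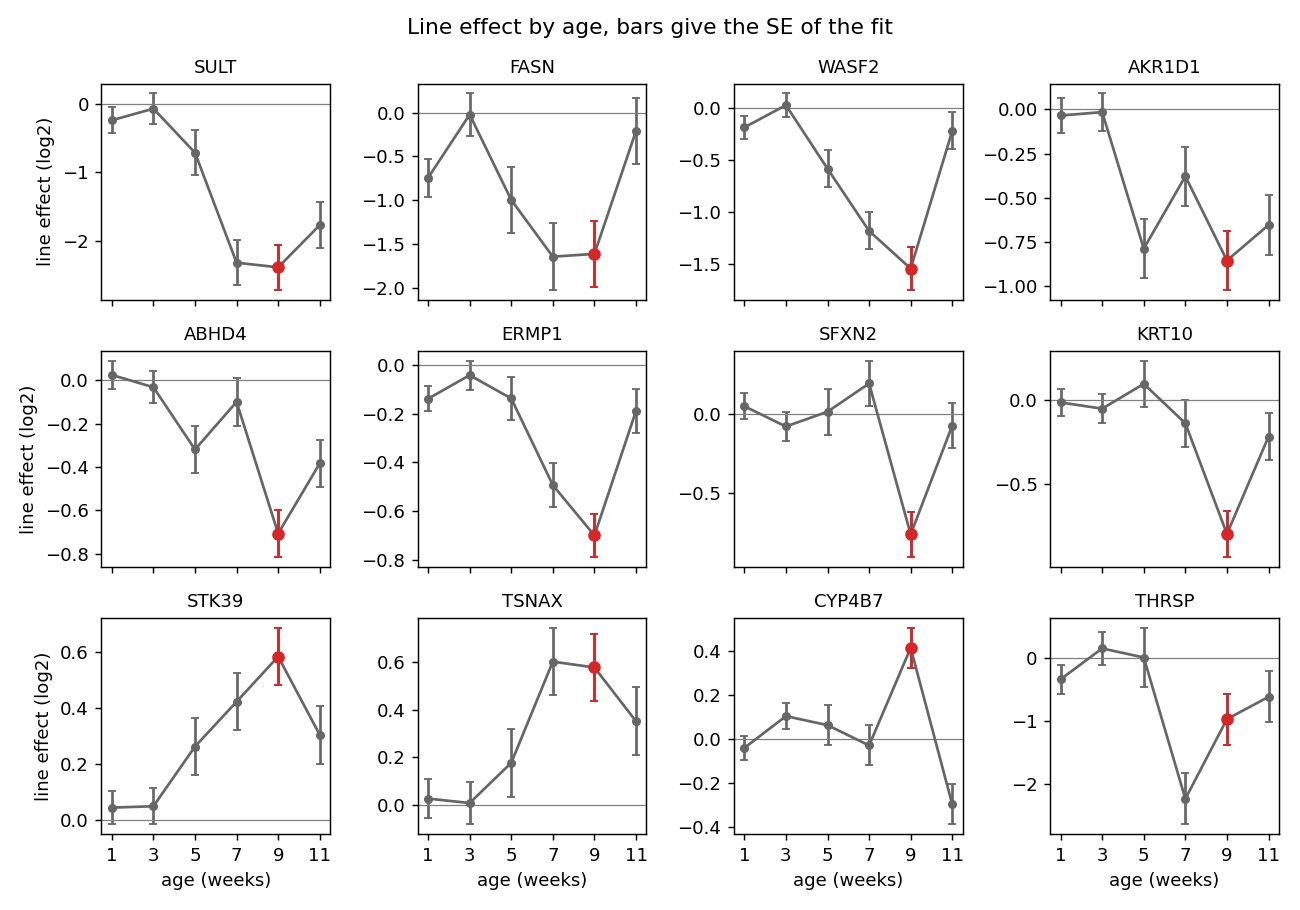
Line effect (log2, y axis) at 1, 3, 5, 7, 9 and 11 weeks (x axis) for 12 genes, with bars for the SE of the fit and 9 weeks in red. SULT, FASN, WASF2 and ERMP1 are farthest from 0 at 7 and 9 weeks, SFXN2, KRT10 and CYP4B7 stand out at 9 weeks (-0.76, -0.80 and 0.41), and THRSP lies at -2.23 at 7 weeks and -0.97 at 9 weeks.

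The difference of 9 minus 7 weeks passed for 38 probes (0.591%), 14 positive and 24 negative. For 33 of the 38 the line effect had passed at 7 weeks and not at 9 weeks, and the median size was 0.18 at 9 weeks and 0.98 at 7 weeks. The named ones included plasma protein, chaperone and metabolic genes. ORM1, an acute phase glycoprotein, had -0.016 at 9 weeks and 2.19 at 7 weeks (difference -2.21, SE 0.42, adjusted p = 0.0041). On the 9-week arrays ORM1 had -0.16, 0.34, -0.86 and 0.61, spread on both sides of 0. VNN2, a pantetheinase, had -0.0005 at 9 weeks and 2.02 at 7 weeks (difference -2.02, adjusted p = 0.0015). For CP, ceruloplasmin, the plasma copper protein, the values were -0.15 and 1.54 (difference -1.69, adjusted p = 0.00072), and TF, transferrin, had -0.12 and 0.93 (difference -1.04, adjusted p = 0.00012).

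HSPA5 had -0.63 at 9 weeks and 1.62 at 7 weeks on its probe with the smallest p (difference -2.25, SE 0.42, adjusted p = 0.0041). CREB3L4, a membrane-bound transcription factor, had -0.34 and 1.55 (difference -1.88, adjusted p = 0.00072), EXOG, a mitochondrial nuclease, had -0.55 and 1.64 (difference -2.19, adjusted p = 0.041), and HSD11B1B, a relative of the enzyme that regenerates glucocorticoids, had -0.31 and 1.42 (difference -1.74, adjusted p = 0.046). In the positive direction GATM, which makes the creatine precursor, had -0.068 at 9 weeks and -2.69 at 7 weeks (difference 2.62, SE 0.51, adjusted p = 0.005). LBFABP, a liver fatty acid binding protein, had -0.47 and -2.02 (difference 1.54, adjusted p = 0.022). TTR, the carrier of thyroid hormone, had -0.10 and -1.06 (difference 0.96, adjusted p = 0.028). For EZH2, a histone methyltransferase, with -0.81 at 9 weeks and -2.22 at 7 weeks on 1 probe, the difference did not pass (adjusted p = 0.263), and its other probe had 0.076 and -0.041.

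In 2 of the 38 the line effect passed at 9 weeks and not at 7 weeks. SFXN2 had -0.76 at 9 weeks and 0.19 at 7 weeks (difference -0.95, SE 0.20, adjusted p = 0.0142), and RNGTT had -0.46 and 0.32 (difference -0.78, SE 0.15, adjusted p = 0.00545). Without replicate 2 of 7 weeks 292 probes passed this difference, against 23 without replicate 3 of 7 weeks. With only the arrays of 7 and 9 weeks in the fit 1 probe passed it, and with array quality weights 5 did. With all arrays scaled to the same spread 0 probes passed it, and the cause was not tested. The pooled residual SD behind the SE, 0.245 for the median probe, was below the 0.356 of the 7-week arrays alone.

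The difference of 9 minus 11 weeks passed for 5 probes (0.0777%), 1 positive and 4 negative, and each of these 5 had also passed at 9 weeks and not at 11 weeks. With 1 value per gene, the mean of its probes, 0 of 3181 genes passed it. WASF2 had -1.55 at 9 weeks and -0.22 at 11 weeks on 1 probe (difference -1.33, adjusted p = 0.035). Its other probes had -0.090 and 0.13 at 9 weeks and 0.11 and 0.026 at 11 weeks. CYP4B7 had 0.41 and -0.30 (difference 0.71, adjusted p = 0.00665), opposite signs at the neighbouring ages. Probe 8.11.6 had -2.32 and 0.016 (difference -2.34, adjusted p = 0.000212). The 4 negative probes had all passed at 7 weeks too, WASF2 with -1.18 and 8.11.6 with -1.63. None of them passed the difference of 9 minus 7 weeks. CYP4B7, the positive one, had -0.031 at 7 weeks. With the replicate number as a block 0 probes passed the difference of 9 minus 11 weeks, where only replicates 1 to 4 of each age were kept.

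Against the mean of the other 5 ages, 13 probes passed (0.202%), 1 positive and 12 negative. Of the named genes, SFXN2, PRDM10, KRT10, ABHD4, ERMP1, WASF2 and TF were negative in this difference and CYP4B7 was positive. WASF2 had a difference of -1.12 (adjusted p = 0.0143), SFXN2 of -0.78 (adjusted p = 0.0143), PRDM10 of -0.77 (adjusted p = 0.0168) and KRT10 of -0.73 (adjusted p = 0.0168). ABHD4 had -0.54 (adjusted p = 0.0299), ERMP1 -0.50 (adjusted p = 0.0143) and CYP4B7 0.45 (adjusted p = 0.0282). TF passed with -0.50 (adjusted p = 0.0443) while its value at 9 weeks, -0.12, did not. Of these named genes, only SFXN2 and TF also passed the difference of 9 minus 7 weeks. WASF2 and ERMP1 had passed at 7 weeks as well, with -1.18 and -0.49 there. Leaving out replicate 1 or replicate 4 of 9 weeks left 4 or 2 probes past the difference from the mean of the other 5 ages.

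**Figure D5:**
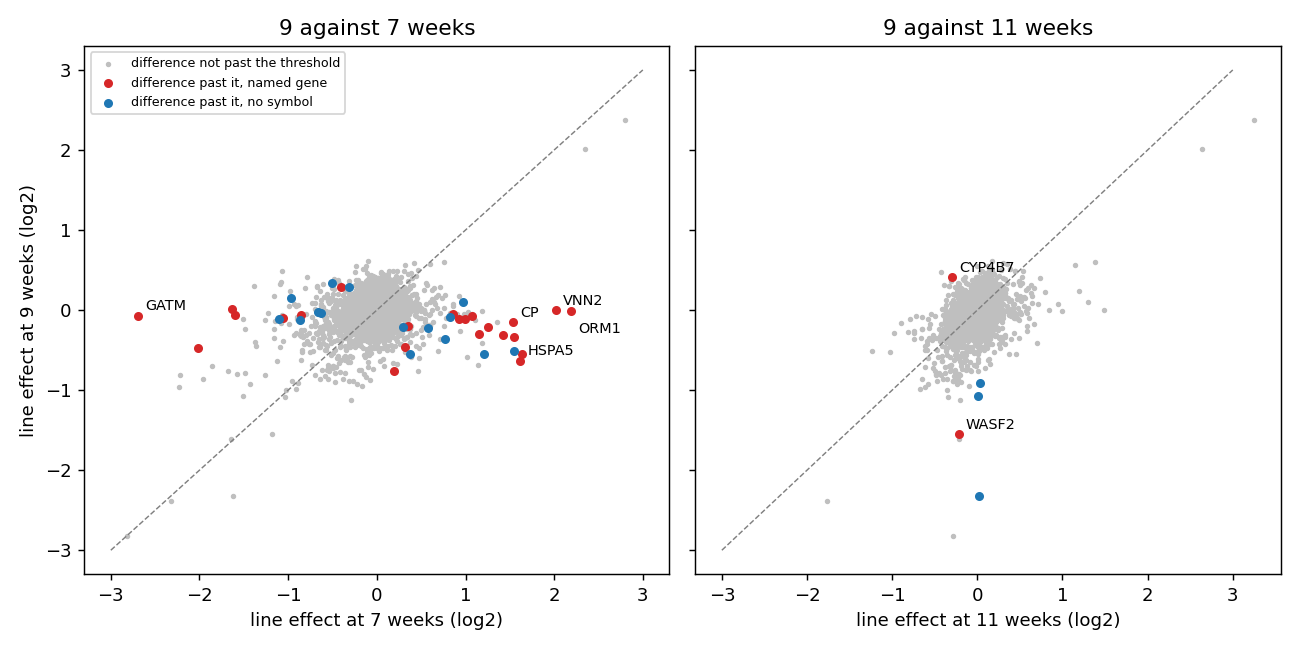
Line effect at 9 weeks (log2, y axis) against that at 7 weeks (left, x axis) and at 11 weeks (right, x axis) for 6432 probes, with coloured points where the difference between the ages passed an adjusted p of 0.05 and a dashed line of equal values. The 38 coloured points of 7 weeks lie mostly along the horizontal through 0, as GATM (-0.068 at 9 weeks and -2.69 at 7 weeks) and ORM1 (-0.016 and 2.19) do, and the 5 of 11 weeks lie along the vertical, as WASF2 does.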

How the data were processed

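Total RNA of HG and LG liver was labelled with Alexa 555 or Alexa 647 and hybridised in pairs to a spotted cDNA array. The authors deposited 1 table of linear dye ratios, a unit read from its values. The scanner, the background correction, the normalization and the dye in the numerator are not given in the sources used here, so depth and level are unknown and the number of arrays limits the precision. The ratio of each spot was put on the log2 scale and spots of 1 accession were averaged, which gave 18547 probes from 19200 spots. Probes with values on 75% or more of the arrays in each age were kept for testing, in all 6432, of which 3859 had a symbol for 3181 genes. Symbols came from the platform annotation, and 10455 of 10601 annotated spots were found in RefSeq by gene ID.

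A line effect for each age, coded by the dye that HG carried, and 1 dye effect entered the limma model (version 3.58.1, R 4.3.3, lmFit and eBayes, median residual degrees of freedom 31). P-values were two-sided and adjusted by Benjamini-Hochberg at 0.05. The design had named all 40 arrays, but replicates 3 and 4 of 3 weeks held nearly the same values (r = 0.9999, with the next highest pair at 0.80) under opposite dye labels, so both were left out and 38 arrays were fitted. The fit takes the deposited ratios as not yet turned to HG over LG. The scripts were tested on simulated data.

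Named genes were up to 15 called probes per direction by size whose sign agreed on 75% or more of their arrays. Then came up to 10 per direction with the smallest p that did not pass and had the same sign on all of at least 3 arrays. Up to 8 per age difference, up to 8 called at each of 7 and 11 weeks and up to 4 per gene list followed. A fixed set was always looked up, namely SULT, FASN, AKR1D1, ABHD4, WASF2, STK39, CYP4B7, THRSP, TTR, ORM1, GHR, IGF1, IGF2, IGFBP2 and LBFABP. Of this set, SULT, FASN, AKR1D1, ABHD4, WASF2, STK39 and CYP4B7 were called at 9 weeks. Members and the 29 lists were chosen with earlier results of these data known, and some list entries were corrected after values were seen. Replicate numbers were checked as pairs. Arrays of 9 and 11 weeks with the same number had deviations with r of 0.27 to 0.57, but they also share the dye orientation, and with that taken out r ran from -0.27 to -0.035. With 7 weeks the lowest r was -0.22 and with 5 weeks 0.034, so the numbers were not taken as pairs there. Alternatives changed the arrays, the dye effect, the scale, the filter, the direction and the replicates.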

Additional observations from a re-analysis of the deposited data

Results flagged for a closer look

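The line effect differed between 9 and 7 weeks by the test of the difference (limma, adjusted p under 0.05) for 13 of the genes the text names. This test uses the spread pooled over all ages, a residual SD of 0.245 for the median probe, against 0.356 on the 7-week arrays alone. With only the arrays of 7 and 9 weeks in the fit, 1 probe passed. The differences, 9 minus 7 weeks on the log2 scale, were -0.782 for RNGTT, -0.954 for SFXN2, -1.88 for CREB3L4, -2.19 for EXOG, -1.74 for HSD11B1B, -1.69 for CP, 2.62 for GATM, -2.02 for VNN2, -2.21 for ORM1, -2.25 for HSPA5, -1.04 for TF, 1.54 for LBFABP and 0.956 for TTR. Between 9 and 11 weeks it differed by -1.33 for WASF2 and by 0.71 for CYP4B7, each on 1 probe. With the mean of a gene's probes, 0 genes passed that difference, and the other WASF2 probes were near 0 at both ages.

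An array stood far from the other 3 of 9 weeks, by Dixon's ratio of the gap to the whole range, for CREB3L4 (0.843, replicate 1 at 0.56 and the others from -0.75 to -0.54), CD3E (0.871, replicate 4 at 0.84 and the others from 0.19 to 0.27) and GALM (0.834, replicate 4 at -0.63 and the others from -0.34 to -0.28). These values and ratios were taken after the dye effect of the fit was removed, unlike the turned ratios given for each array elsewhere, and chance alone flags about 1 in 20 genes, so 3 of the 68 genes examined is about that rate.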

How the results depend on the processing

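The main counts were 54 probes at 9 weeks, 38 for 9 minus 7 weeks, 5 for 9 minus 11 weeks, 13 for 9 weeks minus the mean of the other ages, and 18 genes. With the arrays of the ages compared alone there were 2, 1 and 0 probes and 0 genes, and none of the named genes called at 9 weeks passed. Array quality weights gave 1023 probes at 9 weeks (621 positive, 402 negative), 5 for 9 minus 7 weeks, 231 against the other ages and 268 genes. The weights were 1.417 and 2.099 on replicates 1 and 3 of 9 weeks, with HG in Alexa 555. On replicates 2 and 4, with HG in Alexa 647, they were 0.2678 and 0.2661. The weighted 9-week values thus rest mostly on 1 dye orientation. Without the arrays of 5 and 7 weeks there were 490 probes, 21 for 9 minus 11 weeks and 233 genes. Against the mean of the other ages still in that fit, 1, 3 and 11 weeks, 98 probes passed. That is not the same difference as the main 13, which included 5 and 7 weeks. A further fit dropped the higher replicate numbers of 1 and 3 weeks. It kept replicates 1 to 4 of each age, all 4 arrays of 9 weeks among them, and gave 9, 2, 0 and 0 probes and 3 genes. With replicate number as a block on those arrays there were 11, 1, 0 and 0 probes and 1 gene. The main fit kept 3 arrays of 3 and 5 weeks that had gone against their labelled orientation. With these left out there were 59 for 9 minus 7 weeks, 8 for 9 minus 11 weeks and 20 against the other ages. A dye effect per age gave 226, 117, 9 and 44 probes and 94 genes. Scaling to 1 median absolute deviation gave 95 probes (24 positive, 71 negative), 0 for 9 minus 7 weeks, 34 against the other ages and 31 genes. A filter on 9 weeks alone gave 22 probes against the other ages and 28 genes, and a value on every array gave 21, 21, 2 and 5 probes and 9 genes. Leaving out 1 array of an age compared gave 23 to 77 probes at 9 weeks, 18 to 292 for 9 minus 7 weeks, 2 to 8 for 9 minus 11 weeks, 2 to 21 against the other ages and 5 to 27 genes. The alternatives that kept both nearly identical arrays or left out arrays of 7 and 11 weeks were chosen after seeing the data. The causes were not tested.

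If the ratios were already turned to HG over LG by the submitters, 594 of 6432 probes passed at 9 weeks. In the differences 1801, 0 and 939 passed, and 321 genes did at 9 weeks. Of the 54, 0 were among the 594, where the share of all probes that passed was itself small. Under that reading the value turned to 0.28 for VPS37C, 0.25 for RNGTT, 0.078 for KATNIP, 0.077 for NCKAP1L, 0.074 for WASF2, 0.17 for SULT, 0.15 for FASN, 0.25 for MCU, -0.24 for TSNAX and -0.22 for STK39. It turned to 0.32 for SLC25A6, 0.018 for LSG1, 0.060 for FMO4, -0.091 for CMBL, -0.28 for MED27, 0.76 for HSD11B1B, 0.48 for CP, 0.12 for VNN2, 0.49 for ORM1, 0.045 for TF and 0.13 for ADH4. It turned to 0.33 for ATIC, 0.27 for EZH2, 0.94 for THRSP, 0.42 for CEBPB, 0.64 for APOA1, -0.0055 for OASL, -0.18 for KRT7, 0.65 for P4HB, -0.052 for PLTP, 0.027 for TTR and -0.078 for GHR. Other reversals were of values near 0. Array weights gave 0.18 for GATM, 0.11 for VNN2 and 0.078 for TTR, scaling gave 0.037 for GATM and 0.0041 for VNN2, and centring gave -0.010 for GHR. Leaving out 1 array of 9 weeks gave values from -0.25 to 0.14 for GATM, from -0.18 to 0.093 for VNN2, from -0.033 to 0.079 for GHR, from -0.13 to 0.17 for ORM1, from -0.21 to 0.028 for TF and from -0.20 to 0.017 for TTR. Over all alternatives, 131 values of named genes lost the threshold and 80 gained it with the direction kept. Only the 25 genes called at 9 weeks could lose it. A further 1148 values kept the direction and stayed on the same side of the threshold, and these include genes that passed in neither fit.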
